A study of Sus scrofa with 6 samples.

Results

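The genes described here disarm reactive oxygen species, maintain glutathione and clear aldehydes. They were taken by symbol from the platform annotation: probe sets with a single gene symbol of the glutathione peroxidase (GPX), glutathione transferase (GSTA to GSTZ and MGST), glutamate-cysteine ligase (GCL), peroxiredoxin (PRDX), thioredoxin (TXN) or aldehyde dehydrogenase (ALDH) families, together with SOD1, SOD2, SOD3, CAT, GSR, HMOX1, HMOX2, NQO1 and NNT. The rule found 83 probe sets for 54 genes, out of 6765 named genes and 23999 probe sets. Where a gene had several probe sets, the one with the highest mean log2 intensity stood for it. Symbols alone decided membership, and a few of these genes do other work: TXNL4A is a part of the spliceosome, and TXNIP binds thioredoxin and holds it inactive.

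Superoxide from the respiratory chain is turned into hydrogen peroxide by superoxide dismutases, and the peroxide is then reduced by catalase, glutathione peroxidases and peroxiredoxins. Glutathione peroxidases draw on glutathione and peroxiredoxins mostly on thioredoxin, and both carriers are recharged with electrons from NADPH. Glutathione transferases and aldehyde dehydrogenases remove the reactive products of oxidised lipids. Muscle fibres use these systems against the oxidants of their mitochondria, and fat cells, macrophages and red blood cells carry antioxidant enzymes too.

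The tissue was longissimus dorsi, a long back muscle, from 3 Large White boars, which served as the control breed, and 3 Northeastern Indigenous boars. All 6 boars were 150 days old at slaughter and had been kept under shared feeding and housing, and the labels name no treatment or allele. Each boar had its own Affymetrix Porcine Genome Array, and the labels call the boars of a breed biological replicates. Values are log2 intensities after quantile normalization of the 6 arrays, and the values of a breed are always listed in the order of replicates 1, 2 and 3.

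The arrays differed in more than breed. Skeletal muscle fibre markers, 9 of the 14 listed being on the array, summed to 30515 to 280578 intensity units in Large White boars and to 243399 to 271397 in Northeastern Indigenous boars, and the lowest sum was that of Large White replicate 1. The muscle filament gene DES read 7.26, 13.23 and 11.59 in Large White boars, so its level on replicate 1 was low for tissue labelled muscle. The other muscle markers were not all low on that array. ACTN2 read 8.30 there, MYBPC1 8.78, TNNT1 9.14 and MYH7 9.57, whereas TNNT3 read 11.62, CKM 12.78, MYH2 13.23 and TNNC2 13.95. Adipocyte markers, 7 of 9, summed to 11422 to 46707 and to 9512 to 15223, and Large White replicates 1 and 3 held the high values. Leukocyte and macrophage markers, 8 of 12, summed to 7461 to 20490 in Large White boars and to 1955 to 3938 in Northeastern Indigenous boars, without overlap. Sums of fibroblast markers, 6 of 8, did not overlap either, at 40988 to 64928 and 23676 to 34781, whereas endothelial and red blood cell sums overlapped. Single genes did not all follow these sums. Of the fibroblast markers only POSTN and SPARC did not overlap, and COL3A1 was higher in Northeastern Indigenous boars, by 0.86 ± 0.58 log2 units (SE). Of the leukocyte and macrophage markers PTPRC, CD14 and CD3E overlapped, whereas AIF1, C1QA, C1QC, CD163 and CD74 did not. No marker of these lists read 0 on any array. In whole tissue, fewer cells of a type and less RNA per cell cannot be told apart. The part of these cell types in the results below was not tested, and for that reason each role group is also given against Large White replicate 2 by itself. Its adipocyte and muscle marker sums were near those of the Northeastern Indigenous boars. Its leukocyte and macrophage sum of 7461 and its fibroblast sum of 40988 lay above all of theirs, so values against this array are not free of cell type differences. The log2 intensity of the 3′ control probe set exceeded that of the 5′ one by 0.32 to 0.48 for gapdh on the 6 arrays. For actin it did so by 2.55 and 2.47 on Large White replicates 1 and 3 and by 2.74 to 3.44 on the other 4 arrays, and for ef1a by -0.04 and 0.08 against 0.31 to 0.52, so these control ratios were lowest on the arrays with the high adipocyte sums, and their part in the results was not tested.

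Of the 54 genes, 49 had a mean log2 intensity at or above the 40th percentile of all probe sets and were tested, and 5 did not: ALDH5A1, GSTA1, GPX5, GPX6 and TXNRD3. Limma called 0 of the 49 at a Benjamini-Hochberg adjusted p under 0.05, where 0% of the 5438 named genes were called, and the members' adjusted p ran from 0.223 to 0.947. At an unadjusted p under 0.05 there were 14 of 49 (28.6%), 10 lower and 4 higher in Northeastern Indigenous boars. Over all named genes tested, 20.8% passed that same unadjusted threshold, with 11.4% lower and 9.42% higher. The median difference, Northeastern Indigenous minus Large White, was -0.24 log2 units over the members and 0.09 over all genes. In total 31 members (63.3%) had a negative difference, against 45.3% of all genes, and 18 a positive one. With arrays centred on their medians that split was 26 to 23, the median of the members was -0.10 and that of all genes 0.16. Breeds did not overlap in 17 members (34.7%), against 28.3% of all genes: 10 were lower in Northeastern Indigenous boars (20.4%, against 12.3%) and 7 higher (14.3%, against 15.9%).

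The count at an unadjusted p under 0.05 moved by over 1.5 times with any array left out. Leaving out Large White replicate 1, 2 or 3 in turn gave 8, 27 and 7 members, and 14.0%, 48.7% and 9.58% of all genes. Leaving out Northeastern Indigenous replicate 1, 2 or 3 gave 5, 9 and 7 members, and 10.6%, 14.1% and 10.2% of all genes. Without Large White replicate 2 limma called 20 members at an adjusted p under 0.05 (40.8%), 15 lower and 5 higher, and 34.2% of all genes. The Large White arrays in that fit are replicates 1 and 3, those with the high adipocyte sums. With both of them left out, which assumes that the remaining Large White boar varies like the Northeastern Indigenous ones, limma called 0 members, 6 had an unadjusted p under 0.05, as had 11.0% of all genes, and the median difference was 0.02.

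**Figure D1:**
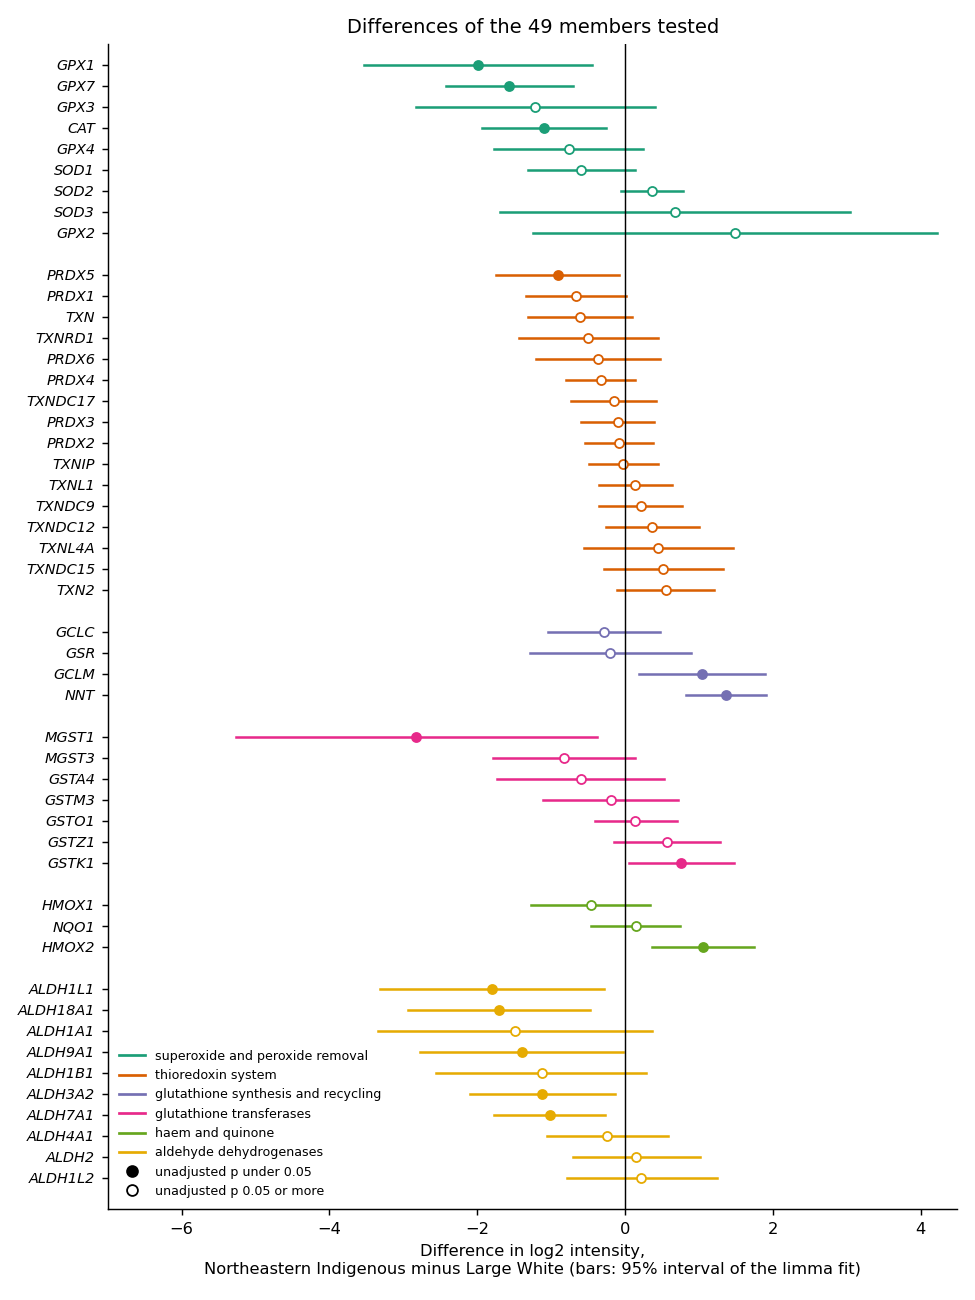
Difference in log2 intensity for each of the 49 members tested, Northeastern Indigenous minus Large White, with the 95% interval of the limma fit, grouped by role. Filled points mark the 14 members with an unadjusted p under 0.05, of which 10 lie left of 0 and 4 right of it, and 0 members passed after adjustment.

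NNT, the transhydrogenase of the inner mitochondrial membrane that uses the proton gradient to make NADPH, had the smallest p of all members. It read 10.06, 10.25 and 10.12 in Large White boars and 11.32, 11.55 and 11.66 in Northeastern Indigenous boars. The Large White arrays were close together and all lay below the Northeastern Indigenous ones, Large White replicate 2 included. The difference was 1.37 ± 0.23 log2 units (SE, n = 3 per breed), a 2.58-fold higher intensity with a 95% interval of 0.83 to 1.91 log2 units. Its limma p was 0.000536 before and 0.223 after adjustment. Leaving out 1 array at a time gave differences from 1.28 to 1.45, and leaving out Large White replicates 1 and 3 together gave 1.33. It passed the adjusted threshold without Large White replicate 2 (limma adjusted p = 0.00863), as did 34.2% of all genes. With any other single array left out its limma adjusted p was 0.232 to 0.54.

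Of the other 3 members of glutathione synthesis and recycling, GCLM was also higher without overlap, and in GCLC and GSR the breeds overlapped. GCLM, the modifier subunit of the ligase that starts glutathione synthesis, read 7.22, 8.44 and 7.38 in Large White boars and 8.69, 8.72 and 8.75 in Northeastern Indigenous boars. Its difference was 1.04 ± 0.36 (SE; limma adjusted p = 0.234), and against Large White replicate 2 by itself 0.28. Its other probe set lay below the filter and differed by -0.04. GCLC, the catalytic subunit of the same ligase, read 8.21, 8.16 and 7.72 against 7.67, 8.26 and 7.31, with overlapping breeds and a difference of -0.28 ± 0.32 (SE) that ran from -0.54 without Northeastern Indigenous replicate 2 to -0.06 without replicate 3 of that breed. GSR, the reductase that recharges oxidised glutathione with NADPH, read 9.40, 7.64 and 8.83 against 8.31, 8.24 and 8.73. Large White replicates 1 and 3 were above and replicate 2 below the Northeastern Indigenous boars for GSR, and the difference of -0.20 ± 0.46 (SE) had an interval of -1.28 to 0.89. It turned to 0.19 without Large White replicate 1. The probe sets of GCLC and of GSR that passed the filter differed in sign among themselves. For the group of 4 the median difference was 0.42, and 0.53 against Large White replicate 2 by itself.

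Other enzymes that make NADPH, or feed that reaction, differed in both directions. IDH2, the mitochondrial isocitrate dehydrogenase, read 10.35, 13.37 and 12.29 in Large White boars and 13.42, 13.68 and 13.86 in Northeastern Indigenous boars, so Large White replicate 2 lay just below the Northeastern Indigenous range and replicates 1 and 3 far below it. PGD, a dehydrogenase of the pentose phosphate pathway, went the other way at 11.07, 7.78 and 9.34 against 6.74, 6.08 and 6.40. TKT, the transketolase of that pathway, read 13.16, 8.98 and 11.32 against 7.90, 8.45 and 7.80. In these genes the breeds did not overlap, and their differences were 1.65 ± 0.69, -2.99 ± 0.76 and -3.10 ± 0.95 log2 units (SE; limma adjusted p = 0.262, 0.224 and 0.224). PGD and TKT were highest on Large White replicate 1, the array with the highest adipocyte sum. Of the 8 genes on this list, 3 had an unadjusted p under 0.05, 1 higher and 2 lower in Northeastern Indigenous boars. Of all genes 20.8% had one, 9.42% higher and 11.4% lower, and 0 of the 8 passed after adjustment. The median difference was -1.45, and 0.15 against Large White replicate 2 by itself.

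**Figure D2:**
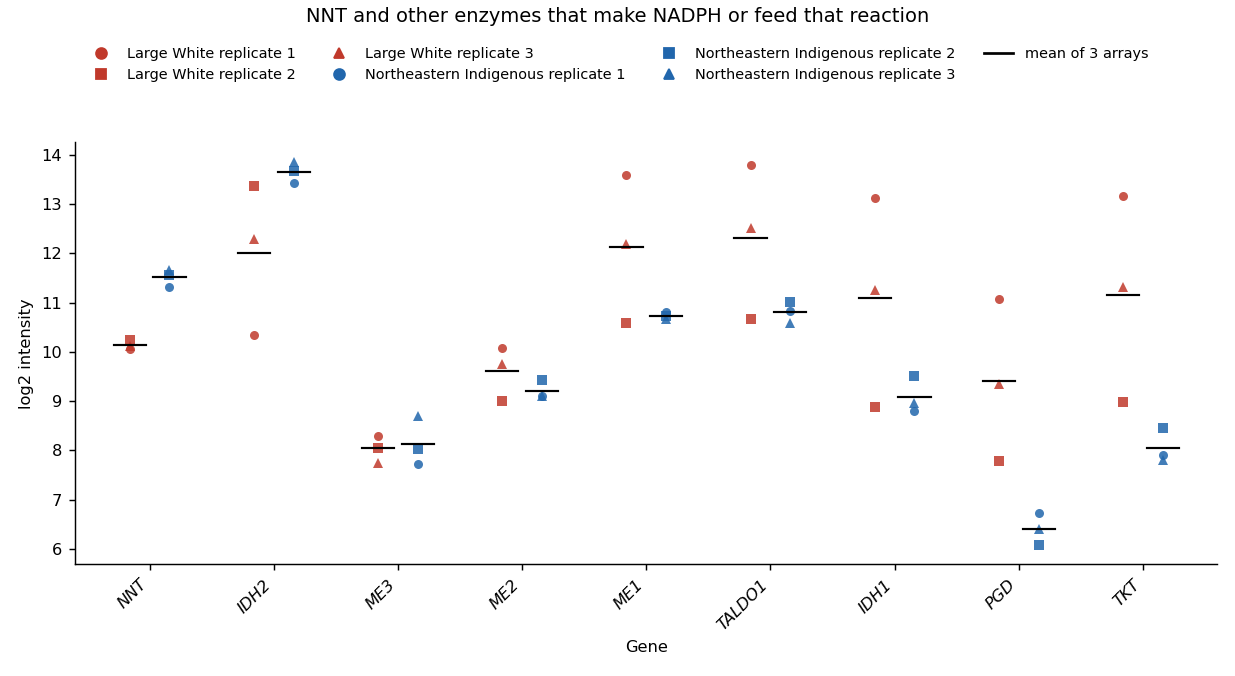
Log2 intensity (vertical axis) of NNT and the 8 tested genes of the NADPH supply list (horizontal axis) on each array, red for Large White and blue for Northeastern Indigenous boars, with a line at the mean of 3 arrays. The Large White values of NNT lie close together, at 10.06 to 10.25, whereas PGD and TKT span 7.78 to 11.07 and 8.98 to 13.16 on the Large White arrays.

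Among enzymes that remove superoxide and peroxides, 9 of 11 were tested and 3 had an unadjusted p under 0.05, all lower in Northeastern Indigenous boars, beside 20.8% of all genes and 11.4% lower. GPX7, a peroxidase of the endoplasmic reticulum, read 9.96, 8.67 and 9.48 in Large White boars and 7.93, 7.79 and 7.68 in Northeastern Indigenous boars. All Large White arrays lay above all Northeastern Indigenous ones, and the difference was -1.57 ± 0.36 (SE; limma adjusted p = 0.224). Another GPX7 probe set differed by -2.11, also without overlap, and one below the filter by -1.39 with overlap. Against Large White replicate 2 by itself the GPX7 difference was -0.87, and leaving out 1 array at a time gave -1.92 to -1.28.

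CAT, the catalase that splits hydrogen peroxide in peroxisomes, read 14.57, 13.27 and 13.88 against 12.47, 12.77 and 13.20. The breeds did not overlap, although Large White replicate 2 and Northeastern Indigenous replicate 3 were only just apart, and the difference was -1.10 ± 0.35 (SE; limma adjusted p = 0.228), or -0.64 with arrays centred on their medians. GPX1, the widespread selenium peroxidase of cytosol and mitochondria, read 14.26, 12.39 and 13.53 against 10.16, 11.76 and 12.30. Its breeds did not overlap either, but Northeastern Indigenous replicate 1 stood well below the others of its breed. The difference of -1.99 ± 0.65 (SE; limma adjusted p = 0.230) was -1.35 without that array.

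SOD2, the manganese dismutase of mitochondria, read 12.26, 12.30 and 12.16 against 12.61, 12.53 and 12.68. Here the Northeastern Indigenous boars were the higher breed, without overlap, by a small and evenly measured 0.37 ± 0.18 (SE; limma adjusted p = 0.296), with SDs of 0.07 in both breeds (n = 3), and by 0.67 with arrays centred on their medians. SOD1, the copper-zinc dismutase of the cytosol, read 14.02, 12.88 and 13.55 against 12.89, 13.13 and 12.66, with a difference of -0.59 ± 0.31 (SE). Its Large White replicate 2 lay inside the Northeastern Indigenous range, and the difference was 0.02 without Large White replicates 1 and 3, -0.33 without replicate 1 alone and -0.10 with arrays centred on their medians. GPX3, the secreted peroxidase of plasma, read 11.17, 8.98 and 8.50 against 7.87, 8.34 and 8.79, a difference of -1.22 ± 0.69 (SE) that was -0.41 without Large White replicate 1. For SOD1 and GPX3 the breeds overlapped. Chosen after its values were seen, GPX4, which reduces lipid peroxides inside membranes, differed by -0.76 ± 0.43 (SE) with overlapping breeds, and by 0.10 against Large White replicate 2 by itself. Its other, dimmer probe set differed by -1.01 without overlap. The extracellular dismutase SOD3 and GPX2, a peroxidase best known from the gut lining, had SDs above 1 in both breeds and intervals of -1.69 to 3.04 and -1.24 to 4.22. For the whole group the median difference was -0.76, and -0.46 against Large White replicate 2 by itself.

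**Figure D3:**
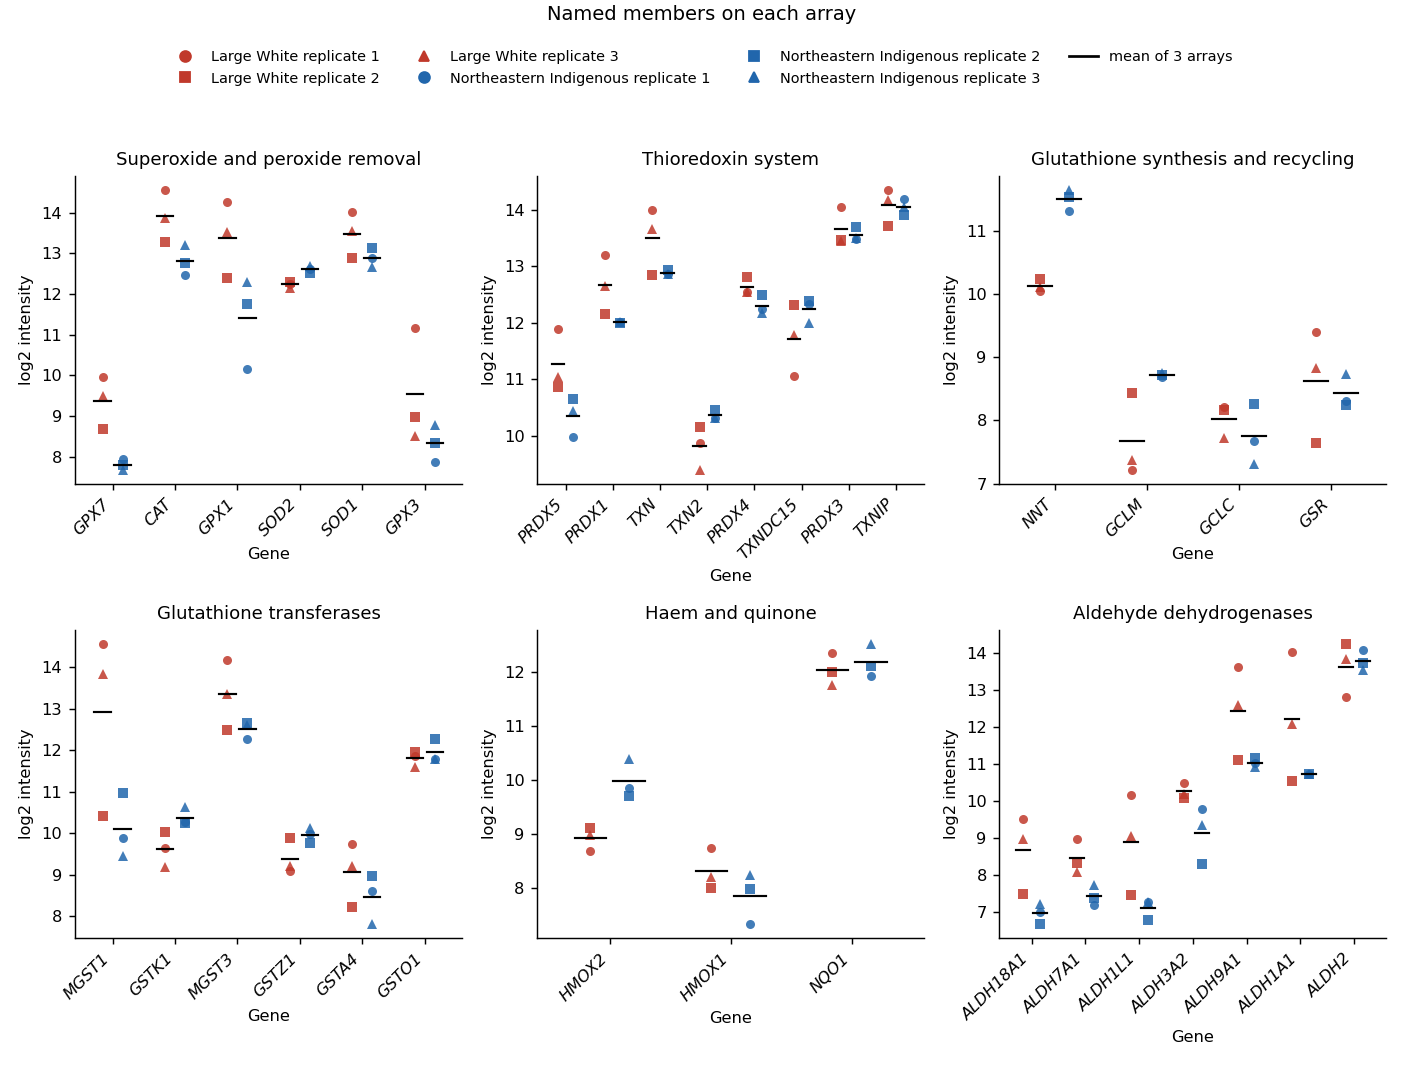
Log2 intensity (vertical axes) of 34 members (horizontal axes) on each of the 6 arrays, with 1 panel per role, red for Large White and blue for Northeastern Indigenous boars, and a line at the mean of 3 arrays. NNT, HMOX2 and SOD2 show 3 blue points above all red ones with little spread, whereas MGST1, ALDH9A1 and ALDH1A1 show red points for replicates 1 and 3 far above all the rest.

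Of 17 thioredoxin system genes 16 were tested, with a median difference of -0.09, and 0.07 against Large White replicate 2 by itself. Of these 16, 1 had an unadjusted p under 0.05, where 20.8% of all genes had one. PRDX5, a peroxiredoxin found in mitochondria, peroxisomes and cytosol, was that gene. It read 11.89, 10.86 and 11.04 in Large White boars and 9.97, 10.66 and 10.44 in Northeastern Indigenous boars, without overlap, a difference of -0.91 ± 0.35 (SE; limma adjusted p = 0.251). PRDX1, a cytosolic peroxiredoxin, read 13.21, 12.15 and 12.66 against 12.01, 12.00 and 12.02. The Northeastern Indigenous values were nearly identical and below all Large White ones, with a difference of -0.66 ± 0.29 (SE) that was -0.13 against Large White replicate 2 by itself, -0.40 without Large White replicate 1 and -0.33 with arrays centred on their medians. TXN, the cytosolic thioredoxin, read 14.00, 12.84 and 13.66 against 12.87, 12.94 and 12.87, a difference of -0.61 ± 0.30 (SE). Large White replicate 2 lay just below the Northeastern Indigenous boars for TXN, so the breeds overlapped, and the difference was 0.06 without Large White replicates 1 and 3, -0.37 without replicate 1 alone and -0.13 with arrays centred on their medians.

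TXN2, the mitochondrial thioredoxin, differed with the opposite sign. It read 9.87, 10.15 and 9.40 against 10.32, 10.46 and 10.31, without overlap, and its difference of 0.55 ± 0.28 (SE; limma adjusted p = 0.308) was 0.21 against Large White replicate 2 by itself and 0.35 without Large White replicate 3. PRDX4, a peroxiredoxin of the endoplasmic reticulum, read 12.54, 12.82 and 12.54 against 12.24, 12.49 and 12.17. The breeds did not overlap, Large White replicate 2 was the highest array, and the difference was -0.33 ± 0.20 (SE) but only -0.04 with arrays centred on their medians. TXNDC15, a membrane protein with a thioredoxin fold, read 11.06, 12.31 and 11.79 against 12.33, 12.38 and 11.99, with overlap and a difference of 0.52 ± 0.34 (SE), which was 0.19 without Large White replicate 1 and 0.80 without replicate 2.

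PRDX3, the mitochondrial peroxiredoxin, and TXNIP showed no separation of the breeds. PRDX3 read 14.05, 13.47 and 13.45 against 13.48, 13.69 and 13.50, a difference of -0.10 with a 95% interval of -0.59 to 0.39. TXNIP read 14.36, 13.72 and 14.17 against 14.20, 13.92 and 14.06, a difference of -0.03 with an interval of -0.49 to 0.44. Both signs depended on scaling: as deposited, PRDX3 differed by 0.25 and TXNIP by 0.36. The other 8 tested genes of the group, among them the cytosolic peroxiredoxin PRDX2, the phospholipid-reducing PRDX6 and the cytosolic reductase TXNRD1, had differences from -0.50 to 0.45 and unadjusted p of at least 0.205. The breeds did not overlap in 1 of these 8, TXNDC12, at 9.12, 9.06 and 8.73 against 9.62, 9.13 and 9.28. Probe sets of TXNRD1 disagreed, at -0.50, -0.60 and 0.85, the second of these without overlap. A dimmer probe set of TXNL1, a thioredoxin-like protein, differed by 0.78 (limma unadjusted p = 0.0397) without overlap, against 0.14 for the one that stands for the gene.

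MGST1, a membrane-bound glutathione transferase with peroxidase activity, had the largest difference of the 49 members tested, in either direction. It read 14.56, 10.41 and 13.83 in Large White boars and 9.89, 10.98 and 9.45 in Northeastern Indigenous boars. Large White replicates 1 and 3 lay far above the rest and replicate 2 lay inside the Northeastern Indigenous range, so the breeds overlapped. The difference was -2.83 ± 1.04 (SE; limma adjusted p = 0.242), and -0.32 without Large White replicates 1 and 3. On Large White replicates 1 and 3 the adipocyte markers ADIPOQ and PPARG read 13.64 and 12.50, and 11.88 and 10.58, against 7.22 and 6.34 on Large White replicate 2. FABP4, LEP and LPL were also lowest on replicate 2 of that breed. CFD was nearly level at 12.85, 12.51 and 13.05, and the dim RETN went the other way at 4.17, 4.53 and 3.72. The part of adipocytes in the MGST1 difference was not tested. MGST3, its relative in the same membrane family, read 14.18, 12.49 and 13.37 against 12.28, 12.67 and 12.62, a difference of -0.82 ± 0.41 (SE) that was 0.03 without Large White replicates 1 and 3, -0.42 without replicate 1 alone and -0.35 with arrays centred on their medians.

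The soluble transferases differed less. GSTK1, of the kappa class in mitochondria and peroxisomes, read 9.65, 10.02 and 9.19 against 10.27, 10.24 and 10.63, without overlap. Its difference was 0.76 ± 0.30 (SE; limma adjusted p = 0.254), and 0.36 against Large White replicate 2 by itself. GSTZ1, which takes part in tyrosine breakdown, read 9.09, 9.88 and 9.20 against 9.99, 9.76 and 10.14, a difference of 0.57 ± 0.30 (SE). Large White replicate 2 lay inside the Northeastern Indigenous range for GSTZ1, and the others lay below it. GSTA4, which conjugates lipid aldehydes, read 9.75, 8.22 and 9.21 against 8.61, 8.97 and 7.81, with overlap and a difference of -0.60 ± 0.48 (SE), which was -0.25 without Large White replicate 1, -1.02 without replicate 2 and -0.27 without Northeastern Indigenous replicate 3. GSTO1, of the omega class, read 11.87, 11.95 and 11.61 against 11.80, 12.28 and 11.79, a difference of 0.14 with an interval of -0.41 to 0.70. GSTM3 differed by -0.19 ± 0.39 (SE). Of 8 genes 7 were tested and 2 had an unadjusted p under 0.05, 1 in each direction, where 20.8% of all genes had one. The median difference of the 7 was -0.19, with 0.03 against Large White replicate 2 by itself.

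HMOX2, the constitutive haem oxygenase, was higher in every Northeastern Indigenous boar than in any Large White boar. It read 8.68, 9.11 and 8.97 against 9.85, 9.70 and 10.38. The difference was 1.06 ± 0.29 (SE; limma adjusted p = 0.224), with 0.86 against Large White replicate 2 by itself, and leaving out 1 array at a time gave 0.85 to 1.19. HMOX1, the stress-inducible form that is also prominent in macrophages, read 8.73, 7.99 and 8.19 against 7.32, 7.98 and 8.23. Its breeds overlapped, and the difference of -0.46 ± 0.34 (SE) was -0.24 without Large White replicate 1 and -0.20 without Northeastern Indigenous replicate 1. NQO1, a quinone reductase and a standard target of the stress regulator NRF2, read 12.35, 12.01 and 11.76 against 11.93, 12.11 and 12.52, with overlapping breeds and a difference of 0.15 with an interval of -0.46 to 0.75. The median of the 3 genes was 0.15, and 0.18 against Large White replicate 2 by itself. Whether HMOX2 and HMOX1 differ from each other in their breed difference was not tested.

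Aldehyde dehydrogenases had the lowest median difference of the 6 role groups, -1.12, with 8 of 10 tested genes lower in Northeastern Indigenous boars. The median was -0.41 against Large White replicate 2 by itself. Of the 10 genes, 5 had an unadjusted p under 0.05, all lower, where 20.8% of all genes had one and 11.4% were lower, and 0 passed after adjustment. ALDH18A1, which starts proline synthesis, read 9.52, 7.48 and 8.98 against 6.98, 6.66 and 7.21, without overlap, a difference of -1.71 ± 0.52 (SE; limma adjusted p = 0.224) that was -0.53 against Large White replicate 2 by itself. ALDH7A1, which acts in lysine breakdown, read 8.98, 8.31 and 8.07 against 7.19, 7.38 and 7.72. All Large White arrays were above all Northeastern Indigenous ones, by -1.02 ± 0.32 (SE; limma adjusted p = 0.227) in the fit and by -0.88 against Large White replicate 2 by itself. Its other probe set differed by -1.39 (unadjusted p = 0.00265), also without overlap, and leaving out 1 array at a time gave -1.21 to -0.76 for the first-named probe set.

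ALDH3A2, which oxidises long-chain fatty aldehydes, read 10.50, 10.08 and 10.20 against 9.79, 8.28 and 9.36. Large White values were close together and above the Northeastern Indigenous ones, among which replicate 2 was lowest. The difference was -1.12 ± 0.42 (SE; limma adjusted p = 0.244), and -0.68 without Northeastern Indigenous replicate 2. The other ALDH3A2 probe set differed by 0.10, so the probe sets of this gene disagree. ALDH1L1, a folate enzyme of the cytosol, read 10.17, 7.46 and 9.06 against 7.26, 6.77 and 7.27, without overlap and with a difference of -1.80 ± 0.64 (SE; limma adjusted p = 0.236). Against Large White replicate 2 by itself the ALDH1L1 difference was -0.36, without Large White replicate 1 it was -1.16, and a dim probe set of the gene, below the filter, differed by 1.51 in the opposite direction.

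ALDH9A1, which acts in carnitine synthesis, read 13.63, 11.11 and 12.60 against 11.03, 11.17 and 10.93. ALDH1A1, which makes retinoic acid from retinal, read 14.04, 10.55 and 12.08 against 10.72, 10.74 and 10.74. In both genes Large White replicate 1 was highest, replicate 3 next, and replicate 2 inside or just below the Northeastern Indigenous range, so the breeds overlapped. The differences were -1.40 ± 0.58 and -1.49 ± 0.78 (SE; limma adjusted p = 0.262 and 0.318), and without Large White replicates 1 and 3 they were -0.07 and 0.19. Without Large White replicate 1 alone they were -0.84 and -0.60. ALDH2, the mitochondrial enzyme that clears acetaldehyde and lipid aldehydes, read 12.82, 14.25 and 13.84 against 14.08, 13.74 and 13.54. Large White replicate 1 was the lowest array and replicate 2 the highest, and the difference of 0.15 ± 0.37 (SE) was -0.27 without Large White replicate 1. ALDH1B1, ALDH1L2 and ALDH4A1 had differences from -1.13 to 0.22, with overlap.

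**Figure D4:**
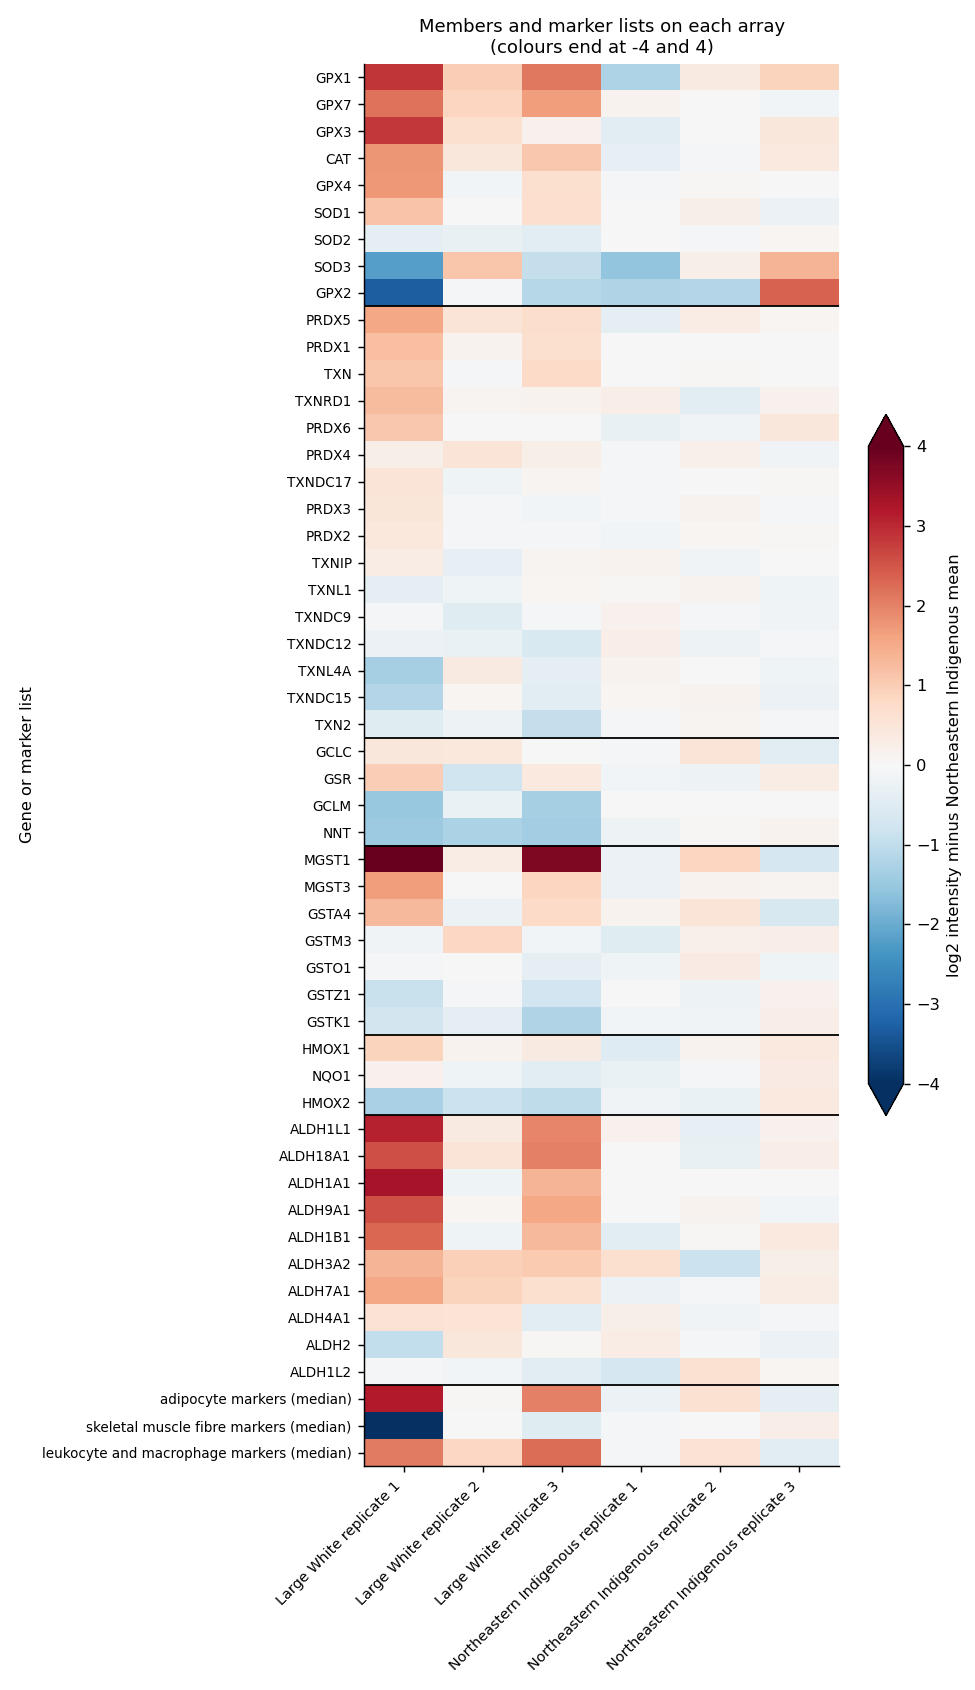
Log2 intensity of the 49 tested members on each array minus the Northeastern Indigenous mean of the gene (colour, red above and blue below, ending at -4 and 4), grouped by role, with the median of 3 marker lists underneath. The red cells of MGST1 and several ALDH and GPX genes on Large White replicates 1 and 3 sit above red adipocyte and leukocyte cells, whereas NNT and HMOX2 are blue on all 3 Large White arrays. The muscle fibre marker row is bluest on Large White replicate 1.

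On the Large White arrays, 25 of the 49 members (51.0%) were highest on replicate 1, next on replicate 3 and lowest on replicate 2, against 32.8% of all genes tested. The opposite order was seen in 10 members (20.4%), against 32.4%. For adipocyte markers, the median difference of the Northeastern Indigenous mean from Large White replicates 1, 2 and 3 was -3.18, -0.05 and -2.03 log2 units. For leukocyte and macrophage markers these values were -2.09, -0.82 and -2.22, and for fibroblast markers -1.93, -0.35 and -1.37. Skeletal muscle fibre markers gave 5.07, 0.03 and 0.47, and the members -0.51, 0.01 and -0.11. The members' SD was larger in Large White than in Northeastern Indigenous boars in 75.5%, close to the 74.0% of all genes. Large White replicate 2 by itself lay outside the Northeastern Indigenous range in 30 of 49 members, 15 above it and 15 below it. The share was 61.2%, against 60.3% of all genes, of which 29.3% were above and 30.9% below.

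In 12 of the 14 members with an unadjusted p under 0.05 the breeds did not overlap. The p and the overlap come from the same 6 values, so this count adds no separate evidence. The share among all genes with such a p was not computed. In the other two, MGST1 and ALDH9A1, Large White replicate 2 lay inside the Northeastern Indigenous range. For 12 genes more than 1 probe set passed the filter. The probe sets of a gene shared a sign in 8 of them and did not in ALDH3A2, GCLC, GSR and TXNRD1. The 5 members below the filter read between 0.99 and 6.50 and were not tested.

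Genes around these enzymes showed 0 adjusted calls as well. The median difference was 0.06 for the list of NRF2 control and glutathione turnover and 0.07 for thiol repair. It was 0.11 for metals, selenium and haem, -0.03 for carbonyl clearance and -0.25 for oxidant sources. In the same order, the medians against Large White replicate 2 by itself were 0.41, -0.01, 0.08, -0.04 and 0.24. For control by NRF2 and glutathione turnover, 4 of 18 listed genes were on the array and 3 were tested, with 0 at an unadjusted p under 0.05. The 4 were CTH, GGT1, GSS and SLC3A2, and GGT1 lay below the filter. None of the listed regulators, such as NFE2L2 and KEAP1, was found by symbol, so these values do not describe control by NRF2. SLC3A2, a subunit of the cystine importer, differed by 1.01 ± 0.49 (SE), and GSS, which completes glutathione, by 0.06 ± 0.32. Thiol repair genes numbered 10, with 1 at an unadjusted p under 0.05, beside 20.8% of all genes. This was GLRX5, a mitochondrial glutaredoxin of iron-sulfur cluster assembly, which read 10.36, 11.00 and 11.08 against 11.79, 11.87 and 11.65, without overlap, a difference of 0.96 ± 0.27 (SE; limma adjusted p = 0.224). All Large White arrays were below all Northeastern Indigenous ones for it.

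Metal, selenium and haem genes numbered 11, with 1 higher and 1 lower at an unadjusted p under 0.05, beside 9.42% and 11.4% of all genes. MT3, a metallothionein, differed by 0.89 ± 0.34, and FTL, the ferritin light chain, by -0.67 ± 0.25 (SE; limma adjusted p = 0.245 and 0.246). Against Large White replicate 2 by itself these were 1.10 and -0.26, and the breeds overlapped for FTL. Of 10 carbonyl clearance genes, EPHX2, an epoxide hydrolase, differed by -1.76 ± 0.60 and AKR1C1, an aldo-keto reductase, by 1.78 ± 0.65 (SE; limma adjusted p = 0.232 and 0.240). For EPHX2 the breeds overlapped, with Large White replicate 2 inside the Northeastern Indigenous range and a difference of -0.40 against it, and for AKR1C1 they did not overlap, with 0.83 against that array. The list of oxidant sources also holds the uncoupling protein UCP3, which is not itself a source, and 6 of its genes were tested. NCF1, a cytosolic subunit of the phagocyte NADPH oxidase, read 6.36, 5.83 and 6.17 against 7.71, 8.58 and 7.44. CYBA, the membrane subunit of the same oxidase, read 9.99, 7.91 and 9.72 against 6.54, 7.05 and 6.58. The breeds did not overlap in either gene, and the differences had opposite signs, at 1.79 ± 0.37 and -2.49 ± 0.55 (SE; limma adjusted p = 0.224 for both). CYBA was higher in Large White boars, as the leukocyte and macrophage markers were, and NCF1 was not. Of the same list, RAC2 differed by -1.34 ± 0.59 (SE) with overlap. NCF4, below the filter and not tested, differed by -1.84 without overlap.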

How the data were processed

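For each array the authors deposited one linear intensity a probe set. The software behind these values is not given in the sources used here, and their mean without the lowest and highest 2% of probe sets lay between 500.1 and 500.2 on the 6 arrays. The 124 control probe sets were left out. Log2 intensities were quantile normalized, since the medians of the arrays spanned 0.35 log2 units. The 14399 probe sets whose mean log2 intensity reached the 40th percentile, 5.85, were tested together with limma 3.58.1 in R 4.3.3, with a variance trend on intensity, 4 residual degrees of freedom, two-sided p-values and Benjamini-Hochberg adjustment over all of them. The number of arrays limits the precision. Platform annotation gave 1 gene symbol for 10069 probe sets, several for 198 and none for 13732, and all 54 members were found by identifier in the RefSeq gene table of Sscrofa11.1. Sequences and coordinates were not used here.

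Within each role, up to 6 members of smallest p and up to 2 of highest mean are given array by array, and up to 4 genes of smallest p are named from each pathway list. SOD3, GPX2, GPX4, TXNDC12 and NCF4 were named after their values were seen. The members and lists were chosen with earlier results of these data known. The fit was tested on simulated data. Alternatives covered scaling, filter, offset, variance model, array weights, a replicate block and arrays left out.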

Additional observations from a re-analysis of the deposited data

How the results depend on the processing

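With other scalings, filters, offsets and variance models, limma called 0 members at an adjusted p under 0.05, and 13 to 15 had an unadjusted p under 0.05. Leaving out 1 array at a time gave 0 to 20 called and 5 to 27 at an unadjusted p under 0.05. Array weights gave 28 called (57.1%) and 34 at an unadjusted p under 0.05. Of all genes, 60.5% were called and 65.6% had such a p, and the highest weight, 42.0, was given to Large White replicate 3. A threshold of 0.25 on the adjusted p passed 11 members and one of 0.1 passed 0. The share of all genes past 0.25 is not given here, so the 11 cannot be read as particular to the members. Without both Large White replicates 1 and 3 there were 6 at an unadjusted p under 0.05. The median difference was -0.39 to -0.12 when 1 array was left out and -0.10 with arrays centred on their medians. Of the 34 members given array by array, 11 were higher in Northeastern Indigenous boars. That count was 10 to 13 when 1 array was left out and 17 without both Large White replicates 1 and 3.

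With the replicate number as a block, limma called 0 members (smallest adjusted p = 0.336), 12 had an unadjusted p under 0.05, as had 16.1% of all genes, and the median difference was -0.24. The labels do not say whether same-numbered boars belong together. Deviations from the breed means correlated at -0.02, -0.16 and -0.11 between same-numbered arrays. The deviations of a breed sum to 0 over its arrays, so these values cannot settle whether the boars were paired.

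Over 17 alternatives the 34 members gave 578 differences, of which 25 turned direction, in 13 genes. The cause was not tested. Without both Large White replicates 1 and 3 these were ALDH1A1 (0.19), ALDH2 (-0.50), GSR (0.78), GSTA4 (0.25), MGST3 (0.03), PRDX3 (0.09), SOD1 (0.02), TXN (0.06), TXNDC15 (-0.07) and TXNIP (0.36). As deposited, PRDX3 was at 0.25 and TXNIP at 0.36, and with arrays centred on their medians they were at 0.39 and 0.50. Array weights gave 0.04 for GCLC and 0.10 for PRDX3. Leaving out 1 array gave -0.27 to 0.45 for ALDH2, -0.69 to 0.19 for GSR, -0.20 to 0.10 for PRDX3, -0.19 to 0.12 for TXNIP, -0.02 to 0.23 for GSTO1 and -0.02 to 0.31 for NQO1. With 3 boars a breed, an exact permutation test of 1 gene cannot go below p = 0.1.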

Other observations

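A list of 10 members whose proteins work mainly in the mitochondrion was made after the values were seen: SOD2, PRDX3, TXN2, NNT, ALDH18A1, ALDH1B1, ALDH1L2, ALDH2, ALDH4A1 and ALDH5A1. PRDX5, GPX1 and GSTK1, whose proteins are found there and elsewhere, are not on it, and neither are ALDH7A1 and MGST1. Of the 9 past the filter, 5 were higher in Northeastern Indigenous boars and 4 lower, with a median difference of 0.15. Of the other 40 members, 13 were higher and 27 lower, with a median of -0.34. Left off the list, PRDX5, GPX1, GSTK1, ALDH7A1 and MGST1 differed by -0.91, -1.99, 0.76, -1.02 and -2.83. Both medians therefore depend on which genes were listed. These values were not tested.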
